A study of Mus musculus with 4 samples.

Results

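The complement genes described here are C1qa, C1qb, C1qc, C3, C4b, Cfb, Cfp, C3ar1 and C5ar1. They are 9 of the 31253 genes counted, chosen by name, and each has 1 row in the count tables. Single-cell RNA sequencing measured live CD45+ leukocytes from the tumor-bearing brain hemispheres of mice on day 14 after CT2a glioma cells were implanted. CT2a is a mouse glioma line syngeneic to C57BL/6. One group was wildtype (WT) C57Bl/6, 4 mice, and the other was CaMKK2 KO, 4 mice with germline loss of the kinase CaMKK2 on the same background. Both groups carried the tumor, and the labels name no drug. The mice were matched females, 8 to 12 weeks old, an age range stated for all experiments together. Oligo-tagged antibodies, 4 per genotype, marked which mouse a cell came from, and all cells of a genotype shared 1 channel of the 10X platform. The mice are the replicates, and an effect of genotype and one of the channel cannot be told apart.

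Complement is a cascade of plasma and tissue proteins that tags surfaces for uptake and recruits leukocytes. In the classical pathway C1q binds its target and leads to cleavage of C4 and then of C3, and in the alternative pathway factor B (Cfb) and properdin (Cfp) build and hold the enzyme that cleaves more C3. The fragments C3a and C5a signal through the receptors encoded by C3ar1 and C5ar1. In brain, microglia are a main source of C1q, and macrophages can make many of the components themselves.

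Without doublets and outlying cells there were 5159 WT and 5686 CaMKK2 KO cells, 1033 to 1680 a mouse, with 12127258 to 20567416 unique molecular identifiers (UMIs, each standing for 1 captured RNA molecule). The median was 12654 UMIs a cell in WT and 11476 in CaMKK2 KO mice, and 8 barcodes were shared by the channels. Marker genes sorted the cells into 12 immune classes, none of whose markers is a complement gene. Within each class every marker was higher than outside it, which sorting by the same markers largely sets in advance. The phagocytes that carry most of the results were tumor-associated macrophages (TAMs, 1622 WT and 1360 CaMKK2 KO cells), classical monocytes (cMonos, 656 and 1193) and microglia (387 and 187). Levels are in CPM, the usual depth-scaled counts, for which the UMIs of the gene were divided by all UMIs of that class in that mouse. Camkk2 itself stood at 28.6, 29.5, 38.6 and 27.6 CPM in the WT mice and at 14.8, 18.3, 13.3 and 22.6 in the CaMKK2 KO mice, which was lower without overlap but not absent. Since the kit counts the 3′ end of each molecule, gene length does not enter.

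The genes lie on 5 chromosomes of build GRCm38, all on the minus strand. C1qb (136880129 to 136886187), C1qc (136889804 to 136893065) and C1qa (136895917 to 136898803) stand beside each other on chromosome 4, and C4b (34728380 to 34743882), Cfb (34856374 to 34862518) and C3 (57203970 to 57228136) are on chromosome 17. Cfp is on chromosome X (20925454 to 20931555), C3ar1 on chromosome 6 (122847138 to 122856161) and C5ar1 on chromosome 7 (16246743 to 16259540). Cfb overlaps the readthrough gene Gm20547 on the same strand, and C4b has a near-identical copy, C4a, not analysed here, so that the levels of Cfb and C4b are less certain. Promoters of 3 members are shown. In CaMKK2 KO TAMs the mean level of C1qb was lower and those of C3 and Cfp were higher, and only Cfp passed the test described below. Each promoter is the 250 bases before the transcription start from RefSeq (build GRCm38.p6, minus strand, 5′ to 3′), with motif matches in capitals.
C1qb, chr4:136886201-136886450: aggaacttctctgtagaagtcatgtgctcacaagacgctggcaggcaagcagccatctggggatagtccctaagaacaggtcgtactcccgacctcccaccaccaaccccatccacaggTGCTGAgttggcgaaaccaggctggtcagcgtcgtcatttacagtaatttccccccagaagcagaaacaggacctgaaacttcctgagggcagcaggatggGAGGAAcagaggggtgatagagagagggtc
C3, chr17:57228137-57228386: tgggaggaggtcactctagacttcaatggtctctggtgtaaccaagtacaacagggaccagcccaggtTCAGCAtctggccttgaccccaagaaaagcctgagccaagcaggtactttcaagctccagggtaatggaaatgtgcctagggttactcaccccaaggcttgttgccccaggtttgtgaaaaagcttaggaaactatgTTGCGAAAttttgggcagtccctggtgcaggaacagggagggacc
Cfp, chrX:20931556-20931805: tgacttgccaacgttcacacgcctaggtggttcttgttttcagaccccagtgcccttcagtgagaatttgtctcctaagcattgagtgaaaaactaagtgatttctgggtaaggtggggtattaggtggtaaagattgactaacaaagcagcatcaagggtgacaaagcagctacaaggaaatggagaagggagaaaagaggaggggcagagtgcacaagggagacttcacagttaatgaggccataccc
In C1qb the capitals are the MAF site TGCTGA, 131 to 126 bases before the start, and the PU.1 core GAGGAA, 30 to 25 bases before it. In C3 they are the MAF site on the other strand (182 to 177) and the C/EBP motif TTGCNNAA (45 to 38). The Cfp window held no match on either strand to these 3 motifs, to the interferon motifs GAAANNGAA and TTCNNNGAA or to the NF-kB motif. Among 32851 mouse promoters of the same length, 16.1% held the MAF site, 23.3% the PU.1 core, 9.56% the C/EBP motif, 7.13% and 7.02% the interferon motifs, and 1.21% the NF-kB motif. The matches printed do not overlap each other, and they are descriptions of the letters and not sites at which a factor was measured.

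C1qa, C1qb and C1qc encode the 3 chains of C1q, the recognition molecule of the classical pathway. Among the 7 classes with at least 10 cells of every mouse, to which all orders of levels given here refer, microglia held the highest level of C1qa, 9315.1 ± 588.5 CPM (SD, n = 8 mice), followed by TAMs with 4941.8 ± 1191.2 and cMonos with 473.6 ± 226.9. The step from microglia to TAMs was 0.96 on the log2 scale and that from TAMs to cMonos 3.48, each in the same direction in 8 of 8 mice (two-sided exact sign-flip permutation test within mice, p = 0.00781, adjusted p = 0.0211 over 54 neighbor comparisons). C1qb and C1qc had the same order, with 8619.8 and 6553.6 CPM in microglia, 5257.0 and 3173.2 in TAMs and 680.4 and 328.1 in cMonos. Below the monocytes the order was not resolved: type 2 dendritic cells (DC2s) had 128.8 CPM of C1qa, B cells 67.4 and T cells 64.8, and these neighbors did not differ beyond their spread. Type 1 dendritic cells, outside the 7 classes, had 547.5 ± 644.5 CPM, above the mean of cMonos. Natural killer (NK) cells, which should lack C1q, had 38.5 ± 11.8 CPM, and 40.6% of WT and 23.1% of CaMKK2 KO NK cells held a C1qa UMI at median depths of 8469 and 6328 UMIs. Against that level, 96.2% of WT (95% exact binomial interval 95.2% to 97.1%) and 83.1% of CaMKK2 KO TAMs (81.0% to 85.0%) held one, at median depths of 16227 and 15169. The intervals cover counting error only.

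The 3 chains were not counted in one fixed ratio. Of all C1q UMIs in microglia, 38.1% were C1qa (36.9% to 39.9% over the 8 mice), 35.1 ± 0.772% C1qb and 26.7 ± 0.558% C1qc (SD, n = 8 mice). In TAMs the shares were 37.0 ± 0.439%, 39.4 ± 0.780% and 23.6 ± 0.669%. The C1qb share was 4.27 percentage points lower in microglia than in TAMs, lower in 8 of 8 mice (exact sign-flip permutation test, p = 0.00781, the smallest that 8 mice allow, adjusted p = 0.00781 over 6 tests). In cMonos C1qb reached 45.7 ± 2.29%, and its share in microglia was 10.6 points below that, again in 8 of 8 mice (same exact test, adjusted p = 0.00781). By mouse and genotype the TAM shares moved little, with 39.3 ± 0.662% C1qb in WT and 39.6 ± 0.967% in CaMKK2 KO mice (n = 4 each).

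**Figure D1:**
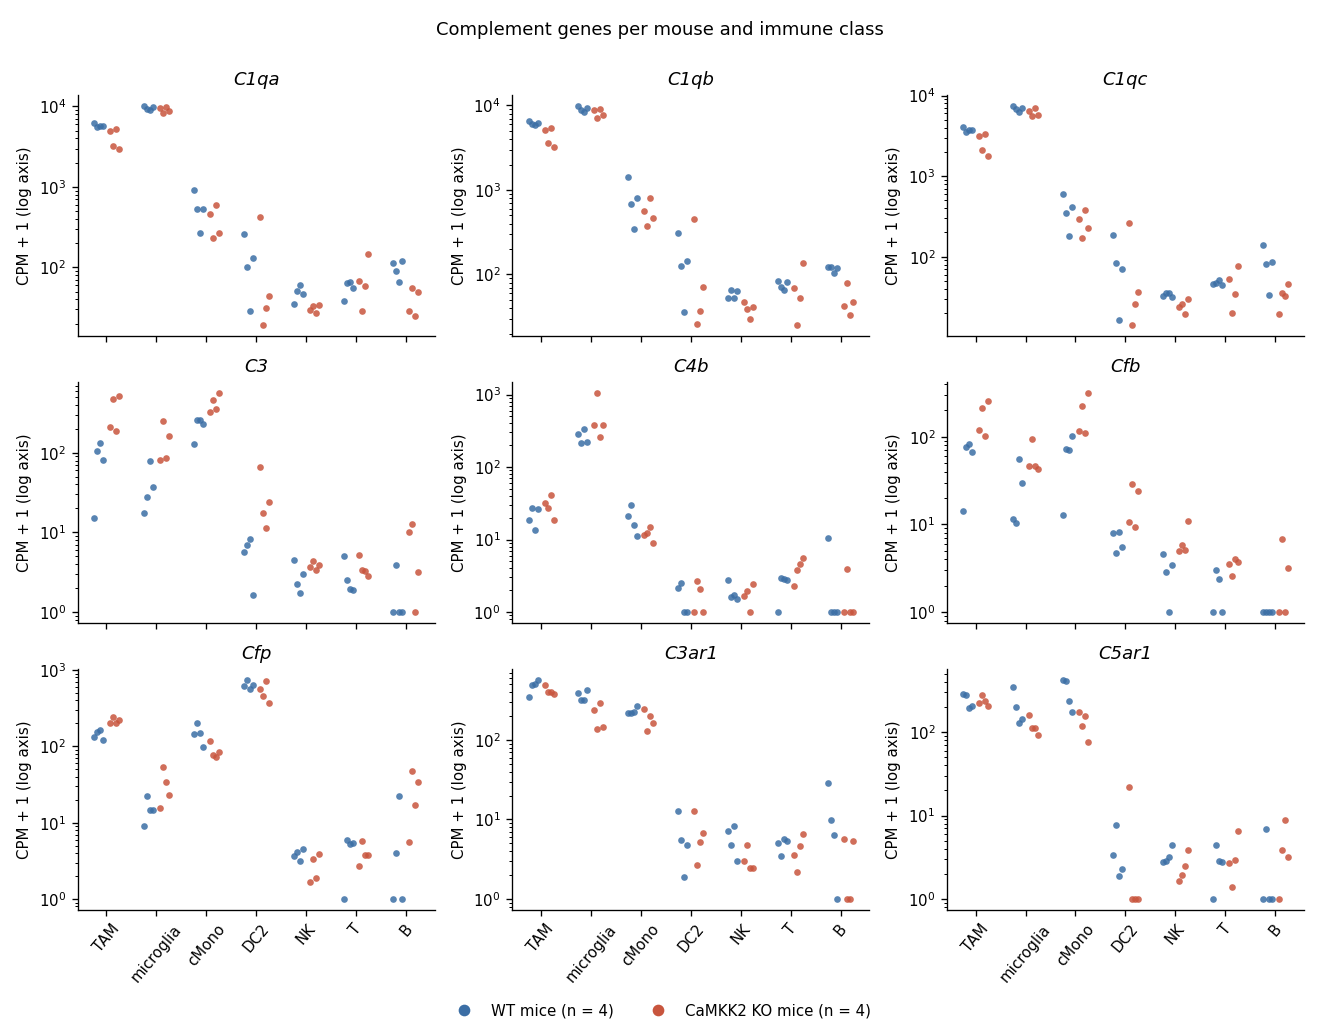
Level of each complement gene (CPM + 1, log axis) in 7 immune classes, where each point is a mouse, blue for WT and red for CaMKK2 KO, 4 mice each. The C1q genes are highest in microglia and TAMs, C4b stands apart in microglia with 388.7 CPM over the 8 mice, Cfp is highest in DC2s with 581.6 CPM, and the receptors are near the floor in lymphocytes.

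C3, the protein on which the pathways converge, had another order. It was highest in cMonos with 320.2 ± 135.7 CPM, then TAMs with 214.3 ± 183.4 and microglia with 91.9 ± 78.9 (SD, n = 8). The log2 step from cMonos to TAMs was 1.06 and that from TAMs to microglia 1.08, each seen in 7 of 8 mice (exact sign-flip permutation test, adjusted p = 0.0352). The means of cMonos and TAMs were 217.6 and 82.5 CPM in WT and 422.8 and 346.2 in CaMKK2 KO mice. In CaMKK2 KO mice their ranges overlapped widely, at 328.7 to 557.3 and 185.0 to 521.0 CPM. The step was not tested within a genotype. DC2s had 16.8 CPM, and B, NK and T cells had 3.25, 2.33 and 2.27. Nonclassical monocytes, with 259 cells in all, gave 234.4 ± 122.4 CPM. C4b, the component cleaved after C1q binds, was a microglial gene here. Microglia had 388.7 ± 270.1 CPM against 24.6 ± 8.83 in TAMs, a log2 step of 3.81 in 8 of 8 mice (same exact test, adjusted p = 0.0211), and cMonos had 14.7. Although microglia were 8.06 ± 5.99% of the WT and 3.35 ± 1.12% of the CaMKK2 KO cells, they held 57.6 ± 16.4% and 54.3 ± 14.5% of all C4b UMIs.

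Cfb, the serine protease of the alternative pathway, was shared by cMonos (127.2 ± 96.5 CPM) and TAMs (115.6 ± 80.0), which did not differ beyond their spread (log2 step 0.07, higher in cMonos in 4 of 8 mice, exact sign-flip permutation test, adjusted p = 0.643). Microglia followed with 41.0 ± 26.6. Cfp, which stabilizes the C3 convertase of the alternative pathway, was the one member led by dendritic cells. DC2s had 581.6 ± 121.1 CPM, TAMs 179.1 ± 42.8 and cMonos 116.8 ± 44.5. The step from DC2s to TAMs was 1.70 in 8 of 8 mice (same exact test, adjusted p = 0.0211). Over the 8 mice TAMs and cMonos were not separated (log2 step 0.66, adjusted p = 0.122 in the exact test). In WT mice their means were 142.7 and 146.8 CPM. In CaMKK2 KO mice TAMs had 199.0 to 238.7 CPM and cMonos 71.3 to 116.1, without overlap. The step was not tested within a genotype. Microglia had 22.4 ± 14.4 CPM of Cfp, and 93.2% of WT DC2s (95% exact binomial interval 89.6% to 95.9%) held a UMI against 3.40% of WT NK cells, at median depths of 17052 and 8469.

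The anaphylatoxin receptors were genes of phagocytes. C3ar1, the receptor of C3a, had 445.6 ± 74.4 CPM in TAMs, 282.8 ± 104.5 in microglia and 206.5 ± 43.8 in cMonos, of which TAMs and microglia differed (log2 step 0.74, 7 of 8 mice, exact sign-flip permutation test, adjusted p = 0.0352) while microglia and cMonos did not (adjusted p = 0.0974). C5ar1, the receptor of C5a, had 236.4 ± 35.8 CPM in TAMs, 217.9 ± 127.6 in cMonos and 161.0 ± 81.4 in microglia. Over the 8 mice these neighbors were not separated (adjusted p = 0.398 and 0.109 in the exact test). TAMs and cMonos had 194.7 to 281.9 and 171.3 to 415.0 CPM in WT mice. In CaMKK2 KO mice they had 204.7 to 274.4 and 74.4 to 174.9, without overlap. Neutrophils gave 414.7 ± 430.5 CPM of C5ar1 from 82 UMIs in 42 cells. DC2s, B, T and NK cells had 1.90 to 6.42 CPM of either receptor. Over the 9 genes, 24 of the 54 steps between neighboring classes passed an adjusted p of 0.05.

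The genotypes were then compared within each class, on UMIs summed per mouse and tested with edgeR's quasi-likelihood test, Benjamini-Hochberg adjusted over every gene of the class with at least 200 UMIs. A gene is called where its adjusted p is under 0.05. In TAMs, where 9 of 9 members were tested, Cfp was called higher in CaMKK2 KO mice and none was called lower. Over all 9283 genes, 1.06% were called higher and 1.65% lower. In 6 of 9 members the TAMs of the genotypes did not overlap, with C3, Cfb and Cfp higher and C1qa, C1qb and C1qc lower in all 4 CaMKK2 KO mice. The same held for 4.52% of all genes in the higher and 10.2% in the lower direction. In microglia C3 was called higher, 1 of 8 members tested, against 0.722% of all genes called higher and 1.17% lower. The microglia did not overlap for C3 (higher) and C3ar1 (lower), beside 2.74% and 8.21% of all genes in these directions. In cMonos 0 of 9 members were called by edgeR, although 5 had an unadjusted p under 0.05. There edgeR called 1.44% of all genes, while DESeq2 called 3 members (C3 and Cfb higher, C5ar1 lower) beside 251 of all 7018 genes and limma called 0 members. C3 and Cfb did not overlap in cMonos, both higher in CaMKK2 KO mice, beside 3.92% of all genes. TMM scaling, which sets the bulk of genes to no change, turned 98 higher and 153 lower calls over all TAM genes into 138 and 97, and 39 and 63 in microglia into 45 and 30. In microglia it moved the median log2 difference of all genes from -0.12 to -0.01.

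Other measures moved with the genotype in these cells. When cells were clustered without the complement genes, WT TAMs lay mainly in clusters 0 and 1 (819 and 573 cells) and CaMKK2 KO TAMs in cluster 2 (935 cells, against 23 in WT). WT cMonos lay mainly in clusters 4 and 1 (445 and 194 cells), and CaMKK2 KO cMonos in clusters 6 and 2 (624 and 454). The 10 genes of highest fold in cluster 2 hold 1 cMono marker, Ly6c2, and 0 TAM markers. Those of cluster 1, mainly of WT cells, hold 0 TAM markers too, and those of cluster 0 hold 1. TAM thus names a range of a marker score and not a fixed type. With TAMs and cMonos joined in 1 class, 0 of 9 members were called by edgeR, 2 had an unadjusted p under 0.05, and C3 (log2 difference 1.69, edgeR adjusted p = 0.166) and Cfb (1.63) still did not overlap. Of all genes, 151 of 9721 (1.55%) were called here, and 3.74% did not overlap in the higher direction. With microglia and nonclassical monocytes joined too, 0 of 9 members were called, 3 had an unadjusted p under 0.05, and 1.73% of all genes were called. The endothelial markers Cldn5, Pecam1 and Kdr summed to 8.56 to 32.7 CPM in WT and 44.7 to 83.8 in CaMKK2 KO TAMs, and to 8.44 to 17.1 and 24.2 to 58.1 in cMonos. Of these Cldn5 was at 0 in the 4 CaMKK2 KO mice in both classes, with 1 UMI over the WT mice in each. Mast cell markers summed to 0 to 1.55 and 1.91 to 4.02 CPM in cMonos, and to 0.598 to 1.70 and 1.92 to 5.17 in TAMs. The part of these in the differences was not tested.

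In TAMs C1qa stood at 6163.1, 5575.2, 5690.7 and 5718.1 CPM in WT mice 1 to 4 and at 4972.6, 3232.7, 5210.9 and 2971.4 in CaMKK2 KO mice 1 to 4. Each CaMKK2 KO mouse lay below each WT mouse, and mice 2 and 4 were far below mice 1 and 3. The log2 difference was -0.50 ± 0.19 (SE) and did not pass the test (edgeR, adjusted p = 0.156). C1qb with -0.51 ± 0.17 (edgeR, adjusted p = 0.128) and C1qc with -0.53 ± 0.20 (adjusted p = 0.154) had the same picture. In microglia C1qa was 9518.4 ± 456.5 CPM in WT and 9111.7 ± 699.5 in CaMKK2 KO mice (SD, n = 4 each), and the genotypes overlapped. The log2 difference of -0.06 there turned to 0.04 under TMM scaling, and neither passed the test. The cMonos had 263.4 to 916.1 and 230.6 to 590.4 CPM and overlapped too (log2 difference -0.52 ± 0.38, edgeR adjusted p = 0.576). Among NK cells, which should lack C1q, 3 members were tested and C1qa was called lower, 47.4 ± 10.4 against 29.7 ± 3.30 CPM (log2 difference -0.71 ± 0.17, edgeR adjusted p = 0.0420). All 3 C1q genes did not overlap there, lower in CaMKK2 KO mice, while 0.880% of all genes were called lower and 3.35% did not overlap in that direction. T cells, with 3 members tested, had 0 called and 0 at an unadjusted p under 0.05, and so had DC2s with 4 (edgeR; 2.13% and 1.80% of all genes called).

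C3 had the largest difference among the members tested in TAMs and in microglia. In TAMs it was 14.1, 105.2, 130.7 and 80.1 CPM in the WT and 212.3, 466.4, 185.0 and 521.0 in the CaMKK2 KO mice. WT mouse 1 was far below the other WT mice, and CaMKK2 KO mice 2 and 4 were far above mice 1 and 3. The log2 difference was 2.07 ± 0.59 and did not pass the test with edgeR (adjusted p = 0.0865), whereas DESeq2 called it, among 709 of 9281 genes. Of TAMs, 44.0% in WT and 82.4% in CaMKK2 KO mice held a C3 UMI, and after thinning each cell to 3000 UMIs 18.6 ± 10.2% and 53.4 ± 16.6% did (SD, n = 4). NK cells held one in 1.89% and 2.61%.

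Microglia had 16.7, 27.1, 77.8 and 36.0 CPM of C3 in WT and 79.1, 251.8, 86.3 and 160.3 in CaMKK2 KO mice. Each CaMKK2 KO mouse was above each WT mouse, by little for WT mouse 3. C3 rose by a log2 difference of 2.06 ± 0.46 (edgeR's quasi-likelihood test with Benjamini-Hochberg adjustment, adjusted p = 0.0416), from 156 UMIs in WT and 359 in CaMKK2 KO cells. The call was lost without WT mouse 1 (1.71, adjusted p = 0.0975), WT mouse 2 (1.91, 0.131), WT mouse 4 (2.07, 0.0927), CaMKK2 KO mouse 2 (1.65, 0.113) or CaMKK2 KO mouse 4 (1.99, 0.120), with the direction kept in each. It was also lost when the level in B and T cells was subtracted as free RNA (2.03, adjusted p = 0.138).

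In cMonos C3 was 128.2, 256.2, 258.2 and 227.9 CPM in WT and 328.7, 455.7, 349.6 and 557.3 in CaMKK2 KO mice, without overlap (log2 difference 0.95 ± 0.24, edgeR adjusted p = 0.0983). C4b in microglia was 281.0, 214.9, 338.9 and 223.2 against 374.0, 1037.9, 257.1 and 382.8 CPM, with CaMKK2 KO mouse 2 far above all others and the genotypes overlapping (0.95 ± 0.35, edgeR adjusted p = 0.192). Without that mouse the log2 difference was 0.35. C4b did not pass the test in TAMs (0.53 ± 0.28, edgeR adjusted p = 0.276) or cMonos (-0.80 ± 0.31, 0.263).

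**Figure D2:**
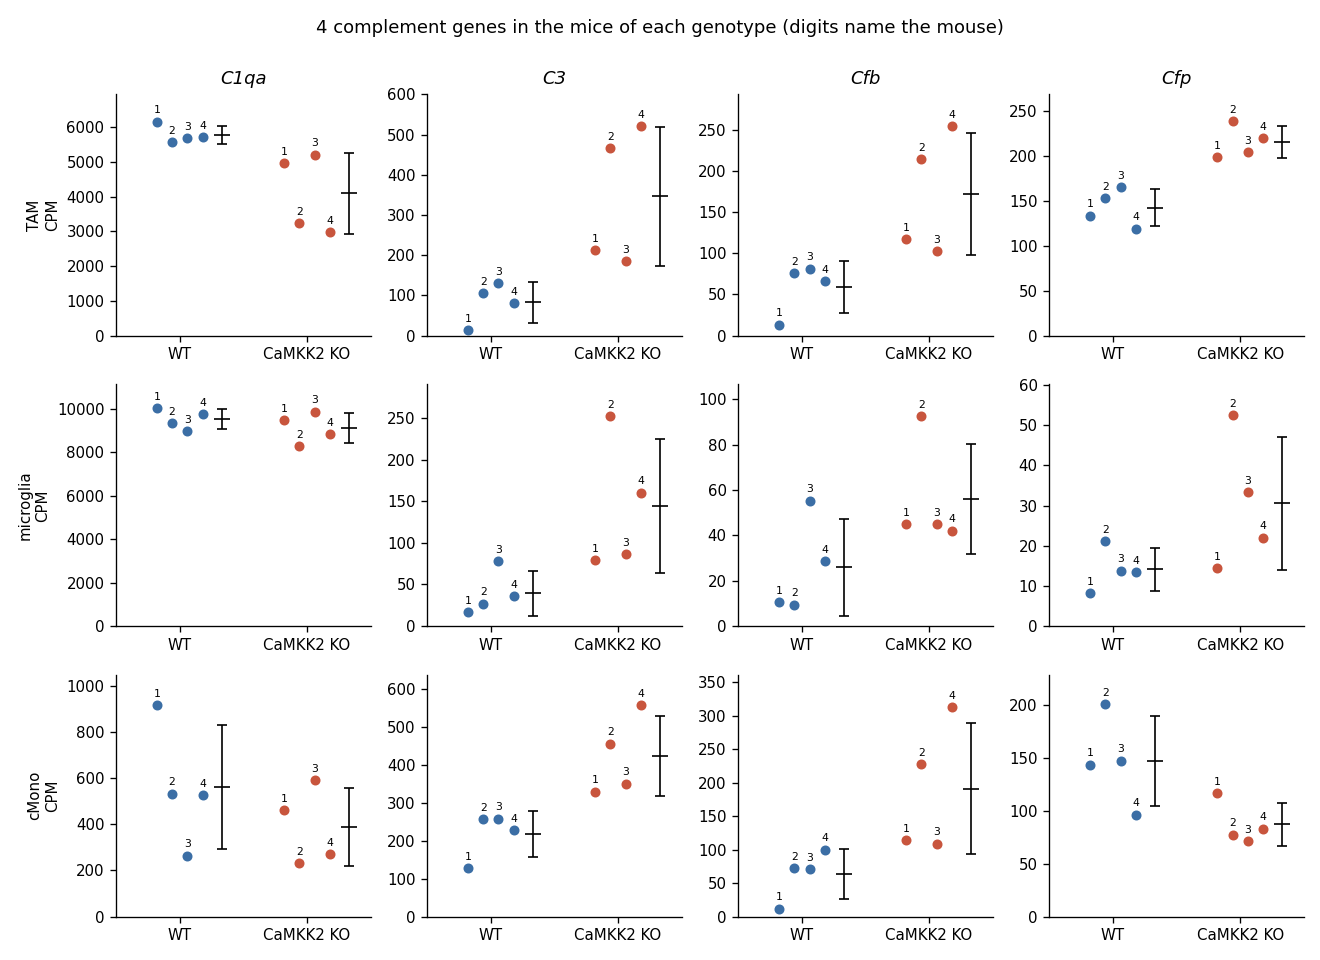
Level in CPM of C1qa, C3, Cfb and Cfp in TAMs, microglia and cMonos, each point a mouse named by its digit, with the mean and SD of the 4 mice of a genotype in black. In TAMs CaMKK2 KO mice 2 and 4 have the lowest C1qa (3232.7 and 2971.4 CPM) and the highest C3 (466.4 and 521.0 CPM).

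Cfb in TAMs was 13.3, 75.7, 81.1 and 66.3 CPM in WT and 117.4, 213.8, 102.5 and 254.4 in CaMKK2 KO mice. As with C3, WT mouse 1 was lowest, CaMKK2 KO mice 2 and 4 were highest and the genotypes did not overlap. The log2 difference of 1.54 ± 0.50 did not pass the test (edgeR, adjusted p = 0.115). In cMonos the levels of Cfb were 11.8, 72.2 and 70.4 CPM in WT mice 1 to 3, higher in WT mouse 4, and 114.4, 227.0, 108.9 and 312.9 in the CaMKK2 KO mice, each above all WT mice (1.53 ± 0.47, edgeR adjusted p = 0.163). The microglia overlapped through WT mouse 3, with 9.42 to 55.3 CPM in WT and 42.1 to 92.4 in CaMKK2 KO mice (1.44 ± 0.49, edgeR adjusted p = 0.163).

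Cfp in TAMs was 133.5, 153.0, 165.4 and 119.0 CPM in WT and 199.0, 238.7, 204.1 and 220.0 in CaMKK2 KO mice. The groups were tight and apart. Cfp rose by 0.59 ± 0.12 on the log2 scale (edgeR's quasi-likelihood test with Benjamini-Hochberg adjustment, adjusted p = 0.0347). The direction was kept but the call was lost without WT mouse 1 (0.56, adjusted p = 0.0702), WT mouse 2 (0.63, 0.0641), WT mouse 4 (0.52, 0.0881), CaMKK2 KO mouse 2 (0.54, 0.0981) or CaMKK2 KO mouse 4 (0.58, 0.0826). It was lost too when outlying cells were kept (0.51, 0.0659), when classes were taken from clusters (0.37, 0.101) and when free RNA was subtracted (0.55, 0.0571).

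Other classes went either way. In cMonos Cfp was 143.4, 200.6, 147.0 and 96.1 CPM in WT and 116.1, 77.1, 71.3 and 83.0 in CaMKK2 KO mice, overlapping through WT mouse 4 (log2 difference -0.76 ± 0.23, edgeR adjusted p = 0.158). DC2s had 637.3 ± 70.9 and 525.9 ± 144.7 CPM (-0.27 ± 0.18, edgeR adjusted p = 0.488). Type 1 dendritic cells, too few in 1 mouse for the test, had 58.6, 69.2, 151.3 and 67.4 CPM in WT and 179.7, 155.9, 214.3 and 172.7 in CaMKK2 KO mice, higher without overlap. How many of all genes did not overlap in this class was not determined. Microglia, untested, had 14.2 ± 5.36 and 30.6 ± 16.6 CPM and overlapped. With TAMs and cMonos joined, Cfp was 144.1 ± 23.5 and 163.2 ± 18.2 CPM (0.18 ± 0.14, edgeR adjusted p = 0.461).

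C3ar1 in microglia was 391.0, 312.6, 316.5 and 427.0 CPM in WT and 237.3, 137.7, 294.0 and 146.3 in CaMKK2 KO mice. The CaMKK2 KO mice were lower without overlap, mouse 3 by little. The log2 difference of -0.81 ± 0.22 did not pass the test (edgeR, adjusted p = 0.0932). C3ar1 overlapped in TAMs (-0.19 ± 0.15, edgeR adjusted p = 0.481) and cMonos (-0.34 ± 0.19, 0.444).

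C5ar1 was widest apart in cMonos, where it was 415.0, 407.0, 231.6 and 171.3 CPM in WT and 174.9, 116.1, 152.8 and 74.4 in CaMKK2 KO mice. WT mice 1 and 2 were the high ones, and WT mouse 4 overlapped CaMKK2 KO mouse 1. The log2 difference was -1.24 ± 0.33 (edgeR, adjusted p = 0.109). In microglia it was -0.82 ± 0.29 (edgeR, adjusted p = 0.173). TAMs had 239.7 ± 45.6 and 233.1 ± 29.8 CPM, and the log2 difference of -0.04 turned to 0.05 under TMM scaling without passing the test.

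**Figure D3:**
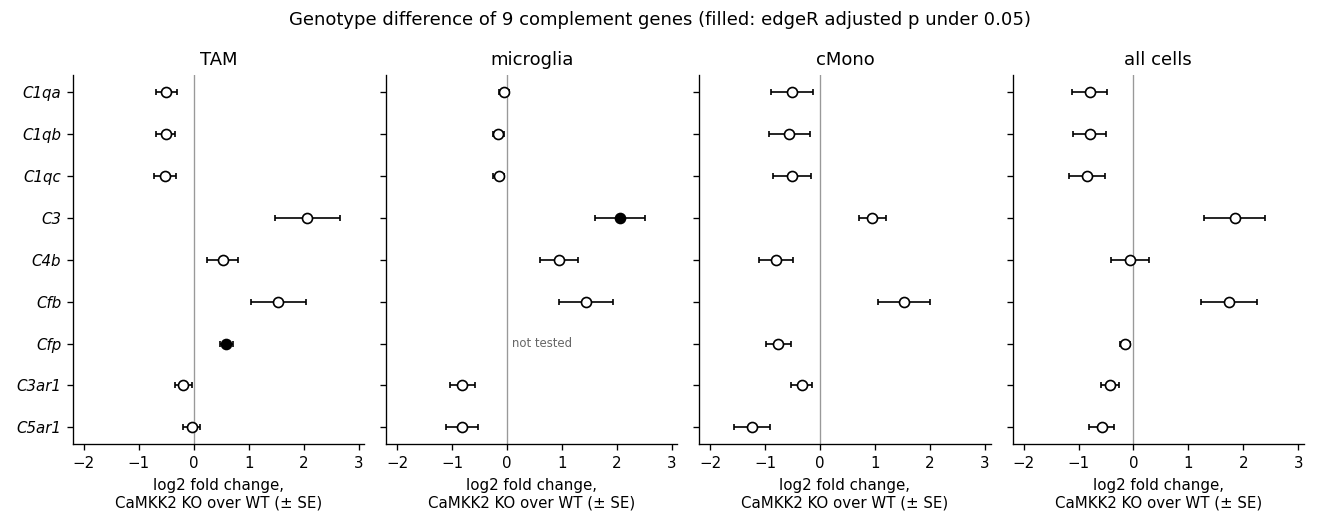
Log2 difference of CaMKK2 KO over WT for the 9 complement genes in TAMs, microglia, cMonos and all cells (horizontal axis). Bars are the SE derived from edgeR's test, and points are filled where the adjusted p is under 0.05. The filled points are Cfp in TAMs at 0.59 and C3 in microglia at 2.06, and Cfp in microglia was not tested because it had 158 UMIs.

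Over all cells of a mouse, in which fewer cells of a type and less RNA per cell cannot be told apart, 0 of 9 members were called by edgeR, while 7 had an unadjusted p under 0.05, DESeq2 called Cfb and limma 0. Of all genes edgeR called 1.48%, and DESeq2 called 676 of 11308. Cfb was the one member without overlap, at 10.5, 39.6, 50.4 and 39.9 CPM in WT and 78.5, 143.2, 55.2 and 192.8 in CaMKK2 KO mice (log2 difference 1.74 ± 0.51, edgeR adjusted p = 0.152). The mice did not overlap in the higher direction for 4.27% of all genes. C3 overlapped, at 17.1 to 111.9 and 110.6 to 388.1 CPM (1.84 ± 0.56, edgeR adjusted p = 0.163). C1qa was 3387.0 ± 1198.6 and 1949.0 ± 753.6 CPM (-0.80 ± 0.32, edgeR adjusted p = 0.250), while TAMs were 32.1 ± 9.62% of all WT and 23.9 ± 5.30% of all CaMKK2 KO cells. TAMs supplied 70.3 ± 10.4% and 66.0 ± 8.55% of the C1qa UMIs. For C3, TAMs supplied 45.1 ± 9.12% and 44.6 ± 10.9% and cMonos 36.8 ± 11.2% and 36.0 ± 10.9%. The Cfb UMIs came to 62.8 ± 7.23% from WT and 48.2 ± 15.3% from CaMKK2 KO TAMs, and those of Cfp to 31.0 ± 6.55% and 14.2 ± 6.79% from DC2s.

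Whether the genotype difference itself differed between classes was tested for each member on the mice's log2 difference between a class and TAMs. Of 27 such tests, 6 reached 0.0286, the smallest p that 4 mice against 4 allow in a two-sided exact permutation test, and none passed an adjusted p of 0.05. The 6 were the C1q genes in microglia (log2 difference above that in TAMs by 0.48, 0.37 and 0.42) and C3, Cfp and C5ar1 in cMonos (below that in TAMs, with -1.31, -1.33 and -1.18), each at an adjusted p of 0.129 in this exact test. For Cfb the cMono and TAM differences were 1.77 and 1.70.

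Within TAMs the members followed different programs of the cells. Each mouse's TAMs were ranked by 6 state scores, none of which holds a complement gene, and the upper tertile was compared with the lower in the 8 mice by a two-sided exact sign-flip permutation test, adjusted over 54 tests. The monocyte-to-macrophage score (Chil3, Ly6c2, Plac8, Vcan, Ccr2) uses genes that also mark cMonos in the gate. By it, the upper tertile had less C1qa, by -1.21 on the log2 scale, less C1qb (-0.97) and C1qc (-1.27), and less Cfp (-0.64). It had more C3 (1.47) and Cfb (0.88). Each was in the same direction in 8 of 8 mice with an adjusted p of 0.0176 in this exact test. The median depths of the tertiles were 13187 and 18325 UMIs a cell, whose part was not tested.

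The interferon score (Ifit1, Ifit2, Ifit3, Isg15, Rsad2, Cxcl10) went with Cfb most. The upper tertile had 91.7 CPM of Cfb against 38.6 in WT and 252.5 against 112.7 in CaMKK2 KO mice, a log2 difference of 1.16 in 8 of 8 mice, and C3 differed by 0.92 (exact test as above, adjusted p = 0.0176 for both). C5ar1 (-0.43) and Cfp (-0.48) were lower there in 8 of 8 mice with the same adjusted p. TAMs high in MHC class II genes had more C3 (0.91) and Cfb (0.56) and less C5ar1 (-0.51) and C3ar1 (-0.40), with adjusted p of 0.0176, 0.0291, 0.0176 and 0.0291 in the exact test. Those high in hypoxia genes had less C1qa (-0.44) and Cfb (-0.48) and more C5ar1 (0.47) and Cfp (0.28), with adjusted p of 0.0176, 0.0291, 0.0176 and 0.0176 in the exact test. The largest difference among the members for this score was that of C4b. It was lower by -0.77, and higher in 1 of 8 mice (exact test, adjusted p = 0.0422). C5ar1 was the one member that passed with the lipid score (0.45, adjusted p = 0.0176 in the exact test). The upper tertile by the cycling score had more of the C1q genes (0.25 to 0.33) and less C5ar1 (-0.26), each at an adjusted p of 0.0176 in the exact test. That tertile is not a class of dividing cells, as 93 of all TAMs lay in the cluster led by Birc5, Cenpe and Mki67. The scores themselves differed between the genotypes, with mean MHC class II scores of -0.608 in WT and 0.726 in CaMKK2 KO TAMs.

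**Figure D4:**
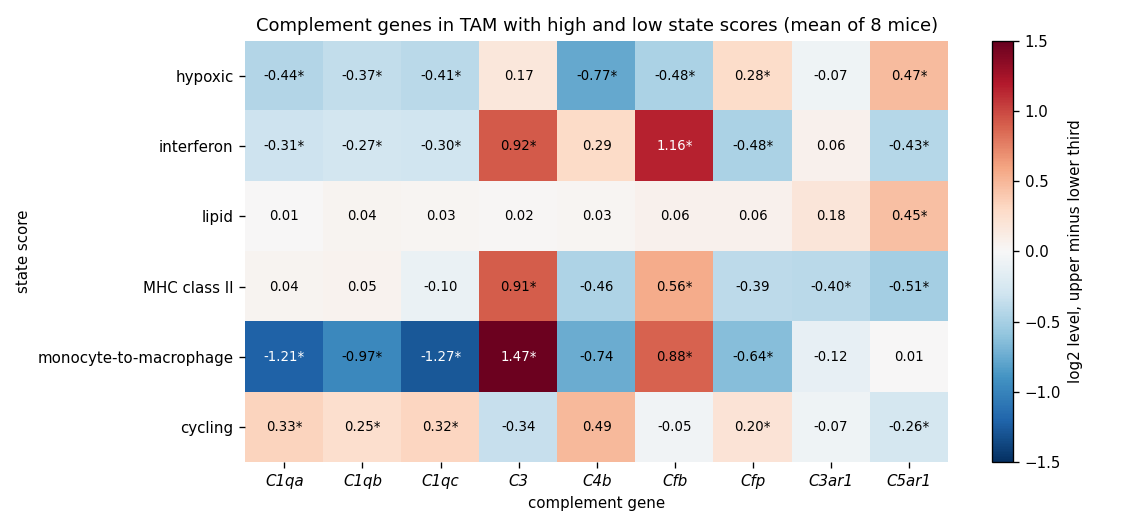
Log2 level of each complement gene (columns) in the upper minus the lower tertile of TAMs by each state score (rows), as the mean of 8 mice, with red for higher in the upper tertile and a star at an adjusted p under 0.05. C3 and Cfb are red and the C1q genes blue for the monocyte-to-macrophage and interferon scores.

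TAM clusters, made without the complement genes, differed in these genes as well. Cluster 2, led by Ly6i, Arg1 and Nos2 beside the members C3 and Cfb, held 58.6%, 90.0%, 51.3% and 87.2% of the TAMs of CaMKK2 KO mice 1 to 4 and at most 2.72% of those of a WT mouse. CaMKK2 KO mice 2 and 4, with the highest C3 and lowest C1qa in TAMs, were the ones with the largest share of their TAMs in cluster 2. WT mouse 1, with the lowest C3, had 66.4% of its TAMs in cluster 0, which is led by Vcam1, Col14a1 and Ms4a7 and held 39.0% to 49.7% in the other WT mice. In cluster 2 CaMKK2 KO mice had 2969.4 to 3585.3 CPM of C1qa and 286.5 to 550.4 of C3. In cluster 1 (Spp1, Ecm1, Fn1), WT mice had 3421.9 to 4447.0 of C1qa and 39.7 to 219.8 of C3.

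Cluster 0 was the one TAM cluster among these with at least 10 cells in mice of both genotypes, 4 WT and 3 CaMKK2 KO. In it C1qa was 6698.6 to 7274.5 CPM in WT (median 7220.9) and 5605.4 to 7043.2 in CaMKK2 KO mice (median 6982.7), which overlapped. C3 was 10.5 to 65.1 and 83.7 to 295.7 CPM, Cfb 14.6 to 71.5 and 76.0 to 157.3, and C4b 11.7 to 31.1 and 42.8 to 58.8, each without overlap. Cfp, the member called in TAMs, was 124.1 to 192.1 and 169.9 to 233.6 CPM in this cluster and overlapped. C3ar1 and C5ar1 overlapped too. The 3 CaMKK2 KO mice had 127, 157 and 10 cells there. Among cMonos in cluster 4 (445 WT and 71 CaMKK2 KO cells), C3 was 265.7 to 281.8 and 224.2 to 286.3 CPM and overlapped. C5ar1 was 218.8 to 466.3 and 15.8 to 110.1 there, and C3ar1 90.2 to 173.8 and 4.94 to 39.3, both without overlap. Also lower without overlap were C1qa (56.3 to 145.4 and 25.3 to 39.5) and C1qb (112.7 to 215.9 and 28.5 to 39.5). So were C1qc (47.4 to 110.3 and 14.8 to 28.5) and Cfp (76.6 to 192.1 and 43.3 to 69.1). Cfb (10.0 to 53.1 and 0 to 28.5) and C4b (3.65 to 30.1 and 11.8 to 15.8) overlapped. The CaMKK2 KO ranges in cluster 4 came from 3 mice with 17, 28 and 24 cells. They rest on 40 C5ar1, 13 C3ar1, 45 Cfp, 26 C1qa, 26 C1qb, 18 C1qc, 11 C4b and 9 Cfb UMIs. No test was made between genotypes within clusters, and the share of all genes without overlap there was not determined.

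**Figure D5:**
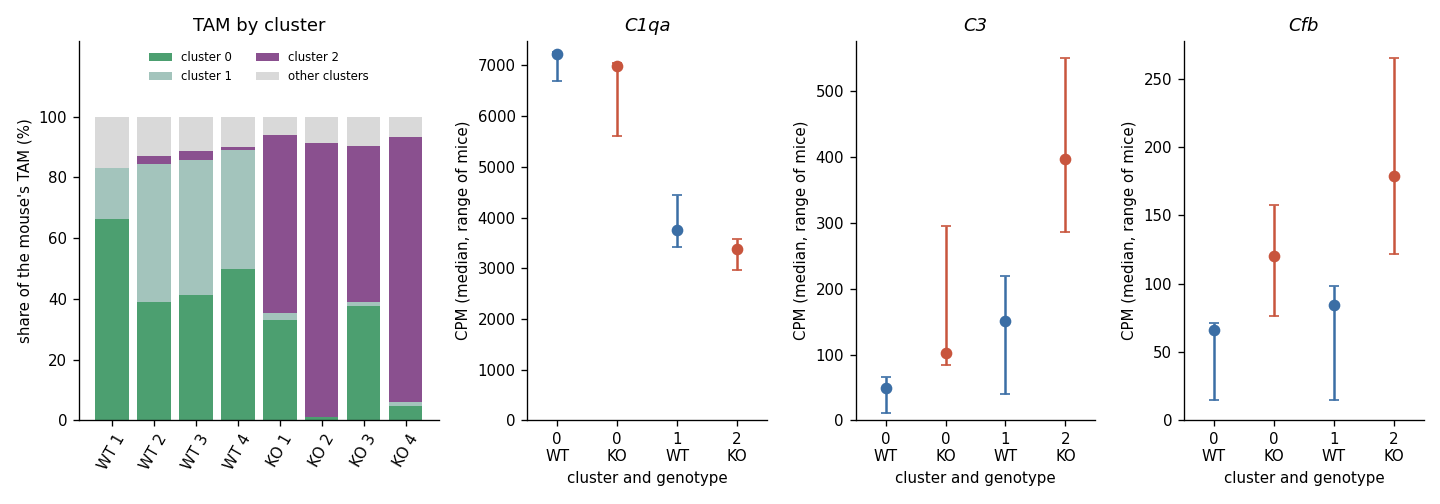
Left, share of each mouse's TAMs in clusters 0, 1, 2 and others (percent). Right, CPM of C1qa, C3 and Cfb in TAMs of these clusters as the median (point) and range (bar) of the mice with at least 10 cells, blue for WT and red for CaMKK2 KO, where C1qa overlaps between genotypes in cluster 0 while C3 and Cfb do not.

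Of 45 further complement genes, 44 were counted, and few had enough UMIs for a test. In TAMs 1 of 22 components was tested and was called higher: C1ra, the protease that C1q activates first, at 4.22, 5.45, 5.27 and 4.78 CPM in WT and 10.3, 19.4, 9.55 and 14.6 in CaMKK2 KO mice (log2 difference 1.44 ± 0.25, edgeR adjusted p = 0.0196). It rose over all cells too (1.42 ± 0.24, edgeR adjusted p = 0.0232), where 3 components were tested. Of all genes, 1.06% were called higher in TAMs and 1.48% in either direction over all cells. The C1ra call in TAMs rests on 135 UMIs in WT and 282 in CaMKK2 KO mice. Of 9 receptors and binding partners tested in TAMs 0 were called, with a median log2 difference of -0.01 beside -0.09 for all genes. In cMonos 1 of 9 receptors was called lower, Cd93, a receptor first linked to C1q uptake, at 153.5, 140.2, 80.5 and 66.7 CPM in WT and 39.4, 40.2, 58.0 and 30.7 in CaMKK2 KO mice (-1.39 ± 0.29, edgeR adjusted p = 0.0476). It fell over all cells as well (-0.69 ± 0.11, edgeR adjusted p = 0.0176). In cMonos 1.44% of all genes were called in either direction. Whether the calls of C1ra and Cd93 hold with 1 mouse left out was not determined. In microglia 0 of 8 receptors were called.

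The genes most like each member over the 7 classes of the 8 mice, by Pearson's r of log2(CPM + 1) over 56 points and 11047 genes, are given as a description, since the points share mice, channel and depth. For the sum of the C1q genes they were Trem2 (0.966), Kcnk13 (0.947) and Cd63 (0.945). C3 and Cfb both had Npc2 first (0.930 and 0.928), and Prdx5 was among the 3 closest for each. C4b had Cryba4 (0.958) and Gm38843, and Cfp had Plbd1 (0.934), Rtl5 and Rnd3. C3ar1 and C5ar1 both had Abcc3 first (0.943 and 0.950).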

How the data were processed

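Live CD45+ cells of 4 WT and 4 CaMKK2 KO mice were profiled on 1 10X channel per genotype. The authors deposited raw UMI counts per gene and barcode, which the submitters' notes tie to bcl2fastq 2.20, Cell Ranger 4.0.0, STAR 2.7.5c and build mm10. The tables hold 6689 barcodes for WT and 7271 for CaMKK2 KO. Intronic reads, strand and multimapping reads were handled in ways not given in the sources used here. Barcodes were given to a mouse by HTODemux of Seurat 5.3.0 (quantile 0.99), which left 5974 WT and 6696 CaMKK2 KO single-mouse barcodes. Cells under 200 genes were removed. Cells over 3 median absolute deviations off in UMIs, genes or mitochondrial share were removed too (744 WT and 922 CaMKK2 KO, scuttle 1.12.0). So were the cells with the highest doublet scores by Scrublet in scanpy 1.11.5 (89 and 106). Their number was set beforehand from the expected rate of doublets within a mouse and is not a count of doublets detected. Scores per cell were means of standardised log expression, capped at 4.0. A cell joined the class of its highest score if that was at least 0.3 for TAMs and cMonos or 1.0 for other classes, limits set after the data were seen. This left 551 WT and 518 CaMKK2 KO cells unassigned. In TAMs, 47 WT and 67 CaMKK2 KO cells lay within 0.1 of the limit.

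Sums of UMIs over the cells of a class in a mouse were tested with edgeR 4.0.16, with the class total as library size, in classes with at least 10 cells of every mouse. DESeq2 1.42.0, limma 3.58.1 on cell means of CPM and TMM scaling were alternatives. So were no filter on counts, other gates, free RNA subtraction, and leaving out each mouse. The paper tested single cells with MAST, which does not treat mice as replicates. On simulated counts edgeR recovered 81.0% of genes changed 2-fold in TAMs, 77.9% in microglia and 71.0% in cMonos, and 2.17%, 3.33% and 4.49% of its calls there were false. Of the DESeq2 calls 12.0%, 2.87% and 10.7% were false in these classes, and 18.3% over all cells. The simulated counts were drawn separately for each gene with edgeR's dispersions. They lack shifts of cell state shared by genes, so these shares are not error rates of the calls reported here. Levels were compared on log2(CPM + 1). The SE of an edgeR log2 difference was derived as its size divided by the square root of the test's F statistic. Shares of cells with a UMI were thinned to 3000 UMIs. Clusters used 3000 variable genes without complement genes, 30 principal components and a resolution of 1.0. Positions of genes are those of GENCODE M21 (31184 of 31253 identifiers matched). Of the 9 promoters, 6 were in the RefSeq table. The further complement genes were named where their adjusted p was under 0.05, at most 10 a class, and Serping1 was added after its values were seen. Some items are not reported here. The members and lists were chosen with earlier results of these data known. Other software was R 4.3.3, Python 3.11.15, numpy 2.4.6, scipy 1.17.1 and pandas 2.3.3.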

Additional observations from a re-analysis of the deposited data

Results flagged for a closer look

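A mouse far from the other 3 of its genotype was found in 6 of 90 groups of 4 values. Chance alone would give about 1 in 20 if the groups were independent, which they were not. The C1q genes below come from the same DC2s of 1 mouse, and C4b and Cfb from the same microglia of another. The number found therefore cannot be set against that rate. In DC2s, CaMKK2 KO mouse 1 had 421.9 CPM of C1qa, 450.8 of C1qb and 260.1 of C1qc, where the other 3 CaMKK2 KO mice had 18.2 to 43.7, 24.8 to 70.0 and 13.2 to 35.0, and its DC2s were 28 cells. In microglia, CaMKK2 KO mouse 2, with 32 cells, had 1037.9 CPM of C4b against 257.1 to 382.8 in the others of its genotype, and 92.4 of Cfb against 42.1 to 45.0. In cMonos, WT mouse 4 had 265.9 CPM of C3ar1, where the other WT mice had 215.9 to 223.4.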

How the results depend on the processing

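Of the values of single members in single classes, 488 kept direction and side of the threshold under the alternatives, 16 newly passed it, 14 no longer passed it and 12 changed sign. The members called in TAMs, 1 as reported, were 2 with DESeq2 or without the filter on counts (C3 and Cfp) and 0 with classes from clusters, with free RNA subtracted or with outlying cells kept. They were also 0 with TAMs and cMonos in 1 class or with TAMs, microglia and both monocyte classes in 1 class, alternatives chosen after seeing the data, and 0 to 1 without 1 mouse. In microglia, where 1 was called, they were 0 with free RNA subtracted, 6 without the filter (beside 420 of 15319 genes), and 0 to 2 without 1 mouse (2 without WT mouse 3 or CaMKK2 KO mouse 3). In cMonos, where 0 were called, they were 3 with DESeq2 or without the filter and 1 with classes from clusters (C5ar1), and over all cells 1 with DESeq2. The cause of these changes was not tested.

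Signs that changed belonged to differences near 0. C5ar1 in TAMs was 0.05 with TMM scaling, with DESeq2 and without WT mouse 1, 0.03 without WT mouse 2, 0.02 without CaMKK2 KO mouse 4 and 0.08 with the stricter gate, and ranged from -0.13 to 0.05 with 1 mouse left out. C1qa in microglia was 0.04 with TMM scaling, 0.05 with DESeq2, 0.01 with classes from clusters and 0.04 with free RNA subtracted. Over all cells C4b ranged from -0.25 to 0.35 with 1 mouse left out, with 0.35 for WT mouse 1 and 0.04 for CaMKK2 KO mouse 4. Over all genes edgeR called 251 in TAMs, 102 in microglia, 53 higher and 48 lower in cMonos and 167 in all cells. DESeq2 called 709 in TAMs, 251 in cMonos and 676 in all cells, and without the filter edgeR called 550 of 17660 in TAMs and 277 of 15849 in cMonos. Genes tested in TAMs, microglia and cMonos fell from 9283, 5405 and 7021 to 3453, 1641 and 2359 with free RNA subtracted. Of these edgeR then called 169, 28 and 26. Without 1 mouse it called 91 to 436 in TAMs, 39 to 128 in microglia, 31 to 150 in cMonos and 71 to 190 in all cells. No paired analysis was possible because the labels give no replicate numbers and a hashtag only names a mouse within its own channel.

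The limits are the 4 mice and 1 channel per genotype, the 32 to 168 microglia and 48 to 415 cMonos of a mouse, and C3 and Cfb counts of 515 and 240 UMIs in microglia. Levels of members under 10 CPM in lymphocytes and DC2s rest on few UMIs.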

Other observations

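Serping1, the inhibitor of the C1 proteases, was singled out after its values were seen, with too few UMIs for the test. In microglia it had 0 UMIs in the 4 WT mice and 42 in the CaMKK2 KO mice, at 3.60, 50.7, 9.89 and 2.0 CPM in mice 1 to 4. CaMKK2 KO mouse 2, the highest for Serping1, was also the highest microglial mouse for C3, C4b and Cfb. In the same class C2, the classical pathway partner of C4, had 8.96 to 22.5 CPM in WT and 8.02 to 30.6 in CaMKK2 KO mice and overlapped, and C1ra had 2.85 to 10.5 and 5.39 to 25.4.

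In nonclassical monocytes, too few in some mice for the test, C3 was 82.4 to 187.9 CPM in WT and 157.8 to 416.0 in CaMKK2 KO mice and overlapped. Cfp there was 61.8 to 84.1 and 13.6 to 56.0 CPM, without overlap, and C5ar1 164.7 to 278.2 and 53.7 to 199.4, overlapping. In DC2s C3 was 0.639 to 7.23 and 10.5 to 65.5 CPM and Cfb 3.71 to 7.23 and 8.41 to 28.1, both without overlap and from 83 and 64 UMIs. The share of all genes without overlap was not determined in nonclassical monocytes or DC2s, so whether these members stand out was not tested.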
